A study of Mus musculus with 2 samples.

Results

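The genes described here are 7 markers of the oligodendrocyte precursor lineage, Olig1, Olig2, Sox10, Pdgfra, Cspg4, Gpr17 and Neu4, found as the rows with these symbols among the 32285 genes of each count matrix, 1 row per symbol in both. The counts came from Slide-tags, a method that labels the nuclei of a frozen tissue section with spatial barcodes before droplet-based single-nucleus RNA sequencing, and the 2 mouse libraries were used without their positions. The adult library was made from a 20 μm coronal section of the hippocampus of a male C57BL/6J mouse aged 56 days, perfused before freezing. The E14 library was made from a sagittal section through the brain of a whole C57BL/6J embryo at embryonic day 14, bought from a supplier that perfused the pregnant mouse. No transgene or treatment is named for either tissue. Each tissue gave 1 library, so values carry only the error of counting and there is no test between animals. Age, brain region, tissue preparation and software version cannot be told apart between the libraries. Nor can sex, which is not given for the embryo.

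Oligodendrocyte precursor cells, also called NG2 glia, persist throughout the adult brain, divide there and give rise to the oligodendrocytes that wrap axons in myelin. In the embryonic forebrain the first of them arise from ventral progenitors of the ventricular zone, in which Olig2 is already active. The members cover several steps of this path. Olig1 and Olig2 are basic helix-loop-helix transcription factors, and Olig2 also specifies motor neurons and patterns ventral progenitors. Sox10 is an HMG-box factor of the whole oligodendrocyte lineage and of neural crest. Pdgfra encodes the receptor through which PDGF-AA drives precursor division and is also a classic marker of fibroblasts and mesenchyme. Cspg4 encodes the NG2 proteoglycan, present on precursors and on pericytes. Gpr17 encodes a G-protein-coupled receptor that marks precursors on the way to differentiation. Neu4 encodes a sialidase, an enzyme that removes sialic acid from glycoproteins and glycolipids.

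In the mouse genome build GRCm38, also named mm10, which the files use, the GENCODE vM21 annotation placed Olig2 at chr16:91225457-91228677 and Olig1 at chr16:91269772-91271933, both on the plus strand of chromosome 16 with 41094 bases and 1 other annotated gene between them. Olig1 is annotated with 1 exon and Olig2 with 2. Sox10 lay at chr15:79154908-79165240 on the minus strand, with 5 exons in its longest transcript. Pdgfra lay at chr5:75152292-75198215 with 23 exons, Cspg4 at chr9:56865033-56899870 with 10 and Neu4 at chr1:94020451-94028334 with 4, all 3 on the plus strand. Gpr17 has 2 exons and overlaps Lims2, a protein-coding gene on the opposite strand. Olig1 overlaps Gm15966 and Pdgfra overlaps Gm42802 and Gm42803, which are noncoding or unproven transcripts on the opposite strand, and whether reads of these pairs were separated fully was not tested.

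The sequence upstream of 4 members is shown because these genes are compared below for moving together or apart, Pdgfra, Cspg4 and Neu4 between precursors and oligodendrocytes and Olig2 between embryonic progenitors. Each window runs from 250 to 101 bases before the RefSeq start, on build GRCm38.p6 and the plus strand, and ends before the annotated gene. The windows are chr16:91225300-91225449 for Olig2, chr5:75152001-75152150 for Pdgfra, chr9:56864854-56865003 for Cspg4 and chr1:94020243-94020392 for Neu4. Of the 7 members, these 4 are shown, Olig1 and Sox10 were not matched to a RefSeq promoter row, and none is shown for Gpr17. Capitals mark CANNTG, the E-box core bound by basic helix-loop-helix factors, and the SOX motifs ACAAAG and ACAATG, all searched on both strands.
Olig2: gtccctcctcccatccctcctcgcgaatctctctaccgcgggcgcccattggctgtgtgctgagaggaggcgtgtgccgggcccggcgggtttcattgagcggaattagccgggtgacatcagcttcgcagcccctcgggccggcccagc
Pdgfra: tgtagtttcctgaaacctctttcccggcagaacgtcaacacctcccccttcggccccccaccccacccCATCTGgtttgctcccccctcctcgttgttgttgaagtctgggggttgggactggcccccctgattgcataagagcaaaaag
Cspg4: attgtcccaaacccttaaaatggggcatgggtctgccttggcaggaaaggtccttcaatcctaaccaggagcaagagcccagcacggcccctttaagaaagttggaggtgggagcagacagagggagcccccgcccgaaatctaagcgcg
Neu4: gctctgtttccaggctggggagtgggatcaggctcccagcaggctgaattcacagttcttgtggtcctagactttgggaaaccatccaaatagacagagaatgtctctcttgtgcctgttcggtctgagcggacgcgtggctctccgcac
An E-box core was found once, as CATCTG in the Pdgfra window, and no SOX motif was found in any of the 4. Among 32851 windows of the same length and position, 49.3% held the E-box core, 10.4% ACAAAG and 6.66% ACAATG, so a match or its lack is common. The Olig2 window was the richest of the 4 in G and C, at 68% of its bases against 55.3 to 58% in the others and a median of 50.7% over all windows. A match describes letters only and is no evidence of binding.

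After removal of nuclei with under 500 UMIs or over 5% mitochondrial UMIs, 1609 of 1661 adult and 9036 of 9037 E14 nuclei remained, with medians of 6607 and 4204 UMIs. UMIs, or unique molecular identifiers, count captured RNA molecules. The libraries shared 1 barcode sequence. Nuclei were clustered without the 7 members and clusters were named from lists of 8 markers that hold none of them. The adult precursor-like cluster held 28 nuclei with a median of 5582.5 UMIs and showed all 8 markers of its list, Vcan, Lhfpl3, Tnr, C1ql1, Pcdh15, Megf11, Xylt1 and Ptprz1. The E14 precursor list held Cspg5 in place of Ptprz1. The adult oligodendrocyte-like cluster held 239 nuclei with a median of 3049 UMIs and showed all 8 of its own, Mbp among them. No E14 cluster was named a precursor cluster. The E14 progenitors were 917 radial glia-like nuclei in cluster 6, with 468, and cluster 9, with 449, the latter showing 5 of 8 ventral progenitor markers beside 5 of 8 radial glia markers and led by Ano1, Sox1ot and Adgrv1. E14 mesenchyme was a cluster of 392 nuclei that showed 7 of 8 fibroblast or mesenchyme markers.

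**Figure D1:**
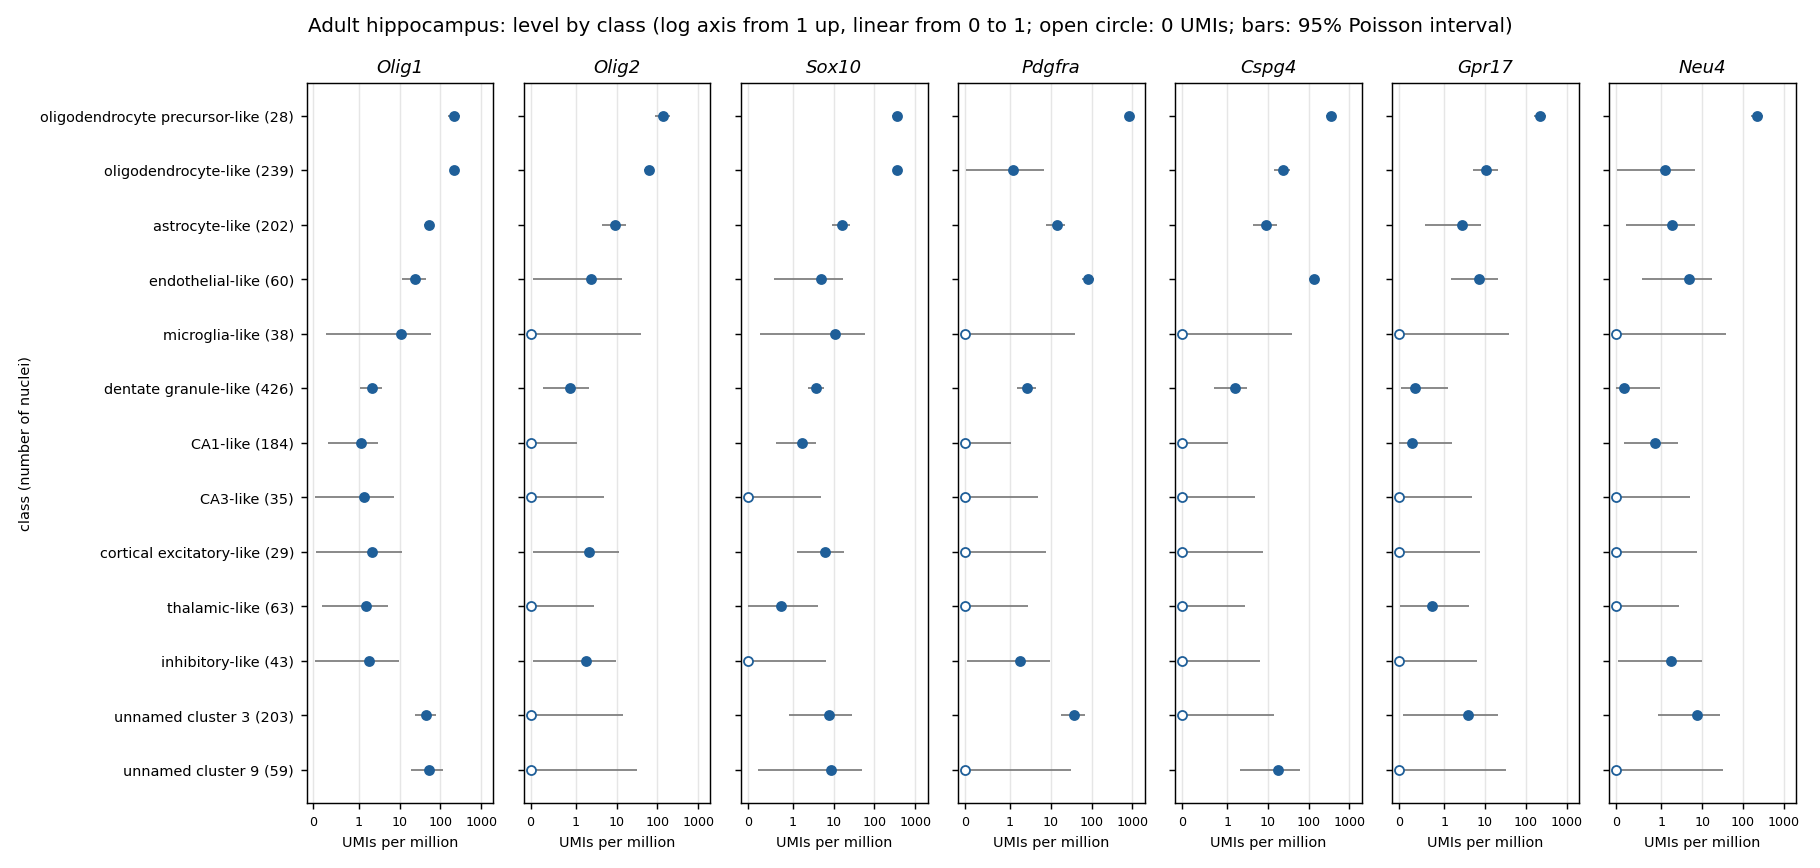
Level of each member in the classes of the adult hippocampus, in CPM (UMIs per 1000000 UMIs of the class) on a log axis that is linear below 1, with the number of nuclei of each class beside its name and 95% Poisson intervals as bars. Olig1, Olig2 and Sox10 were high in both precursor-like and oligodendrocyte-like nuclei, while Pdgfra, Cspg4, Gpr17 and Neu4 were lower in the latter, Pdgfra standing at 821 and 1.2.

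In the adult hippocampus the 3 transcription factors were found in precursors and in oligodendrocytes. The 2 receptors, the proteoglycan and the sialidase were far higher in precursors than in oligodendrocytes. Levels are given as CPM, the pooled UMIs of a gene in a class scaled to 1000000 UMIs of that class, with exact 95% Poisson intervals. Olig1 stood at 220.2 CPM (interval 155 to 304, 37 UMIs in 16 of 28 nuclei) in precursor-like nuclei and at 216 CPM (interval 185 to 249.7, 179 UMIs in 118 of 239 nuclei) in oligodendrocyte-like nuclei. Sox10 stood at 357 CPM (interval 272 to 459.7, 60 UMIs in 21 of 28 nuclei) and 361 CPM (interval 322 to 405, 300 UMIs in 139 of 239 nuclei). For both genes the precursor level lay inside the interval of the oligodendrocyte level, the ratios being 1.02 (interval 0.696 to 1.46) and 0.988 (interval 0.736 to 1.31). Olig2 was higher in precursors, at 137 CPM (interval 86.8 to 205, 23 UMIs in 16 of 28 nuclei) against 61.4 CPM (interval 45.7 to 80.8, 51 UMIs in 42 of 239 nuclei), a level 2.23 times (interval 1.3 to 3.71) that of oligodendrocytes. When clustering used 4000 variable genes the precursor-like cluster held 39 nuclei, the log2 ratio of Olig2 went from 1.16 to 0.66 (interval -0.11 to 1.40), which includes no difference, and that of Sox10 from -0.02 to -0.51 (interval -0.93 to -0.10).

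Pdgfra reached 821 CPM (interval 690.0 to 970.3, 138 UMIs in 22 of 28 nuclei) in precursors, and a single UMI was found among the 239 oligodendrocyte-like nuclei, where the interval ran up to 6.71 CPM. Neu4 was alike in this, with 220.2 CPM (interval 155 to 304, 37 UMIs in 18 of 28 nuclei) in precursors and 1 UMI in oligodendrocytes. The ratios were 682 (interval 120.3 to 27118) for Pdgfra and 183 (interval 30.8 to 7412) for Neu4, with intervals this wide because the lower class rests on 1 count. Gpr17 and Cspg4 kept a low level in oligodendrocytes. Gpr17 stood at 226 CPM (interval 160.0 to 310.4, 38 UMIs in 16 of 28 nuclei) in precursors and 10.8 CPM (interval 4.96 to 20.6, 9 UMIs in 7 of 239 nuclei) in oligodendrocytes, a ratio of 20.9 (interval 9.91 to 49.1). Cspg4 stood at 351 CPM (interval 267 to 453, 59 UMIs in 19 of 28 nuclei) and 22.9 CPM (interval 13.8 to 35.7, 19 UMIs in 16 of 239 nuclei), a ratio of 15.3 (interval 9.02 to 27.2). Precursor-like nuclei, 28 of 1609, held 64.5% of the library's Pdgfra UMIs, 75.5% of its Neu4 UMIs and 65.5% of its Gpr17 UMIs, but 37.8% of its Cspg4 UMIs and 14.5% of its Sox10 UMIs.

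Of the 7 members, 4 were at least 4-fold higher in precursors than in oligodendrocytes and 0 were at least 4-fold lower, where 10.0% of the 10050 genes with 10 or more UMIs in both classes together were higher by that limit and 6.85% were lower. The median log2 ratio of the members was 3.94 and that of all genes tested was -0.02. The members are known markers of these cells, so the count describes how far the clusters built without them carried them along.

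**Figure D2:**
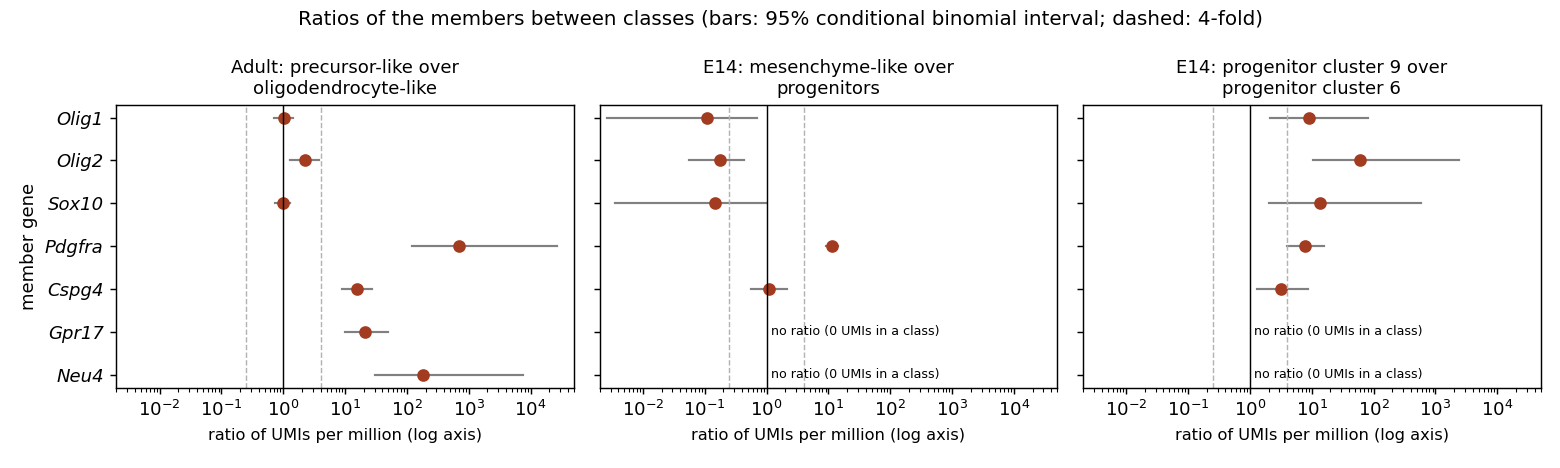
Ratio of the level of each member between 2 classes on a log axis, with 95% conditional binomial intervals as bars and dashed lines at 4-fold, for adult precursor-like over oligodendrocyte-like nuclei, E14 mesenchyme-like nuclei over progenitors, and E14 progenitor cluster 9 over cluster 6. The intervals of Pdgfra, Cspg4, Gpr17 and Neu4 lie wholly above 4-fold in the first panel, only that of Pdgfra does in the second, and only that of Olig2 has a lower end as high as 10.5 in the third.

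Shares of nuclei with a UMI gave the same picture at the depth of the library. Pdgfra was detected in 78.6% (interval 59 to 91.7%, 22 of 28) of precursor-like nuclei, Sox10 in 75% (interval 55.1 to 89.3%, 21 of 28), Cspg4 in 67.9% (interval 47.6 to 84.1%, 19 of 28) and Neu4 in 64.3% (interval 44.1 to 81.4%, 18 of 28), while Olig1, Olig2 and Gpr17 were each detected in 16 of 28. In oligodendrocyte-like nuclei Sox10 was detected in 58.2% (interval 51.6 to 64.5%, 139 of 239), Olig1 in 49.4% (interval 42.9 to 55.9%, 118 of 239) and Olig2 in 17.6% (interval 13 to 23%, 42 of 239). When every nucleus was thinned to 1000 UMIs, the Sox10 share was 28.6% (8 of 28) in precursors and 27.9% (64 of 229) in oligodendrocytes, and the Pdgfra share was 53.6% (15 of 28) and 0% (0 of 229). As background, dentate granule-like neurons, which should lack these genes, had a median of 11368 UMIs and held Sox10 in 2.11% (interval 0.97 to 3.97%, 9 of 426), Olig1 in 9 and Pdgfra in 5 of 426 nuclei. In these neurons, thinned to 1000 UMIs, 0 of 425 nuclei held any of the 3, with an exact upper limit of 0.864%.

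The other genes of the pathway were read from lists chosen with earlier results of these data known. All 8 myelin genes were lower in precursors by at least 4-fold, such as Mbp, myelin basic protein, at 434 against 4917 CPM. All 7 tested lecticans and proteoglycans were higher, such as Ptprz1, a receptor phosphatase that is itself a proteoglycan, at 3148 against 33.7, Gpc5, a glypican, at 2875 against 113, Vcan at 1196 against 3.61 and Cspg5 at 732 against 19.3. Vcan and Ptprz1 also belong to the markers that named the precursor-like cluster. The 8 myelin genes are the markers that named the oligodendrocyte-like cluster. The differences of these genes were therefore built in by the naming. The transcription factors split, with 2 of 9 tested higher and 3 lower. Sox6 and Sox5, SoxD factors that hold back differentiation, were higher, at 1893 against 16.9 and 1190.3 against 10.8. Lower were Myrf, the factor that switches on myelin genes, at 29.8 against 219, Zfp536 at 304 against 1955, and Nkx6-2, with 0 UMIs in precursors against 113 in oligodendrocytes.

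Among regulators of the precursor state, 2 of 4 tested were higher, the Notch target Hes5 at 107 against 1.2 and the receptor gene Notch1 at 65.5 against 9.64 CPM, and 0 were lower. Of the 8 genes of committed precursors, 3 were higher, namely Bmp4 at 71.4 against 1.2, Itpr2 at 702 against 62.6 and Fyn at 857 against 178, and the rest, such as Bcas1 at 1059 against 799, stayed within 4-fold. Pdgfa, which encodes the PDGF-A ligand, was lower in precursors, at 5.95 against 54.2 from 1 UMI against 45, so the ligand and its receptor stood in opposite classes. Pdgfc differed little, at 41.7 against 48.2, and the other 3 genes of that list had under 10 UMIs. The single sialidase tested beside Neu4, the lysosomal Neu1, was within the limit at 5.95 against 18.1, and Neu2 and Neu3 had 0 UMIs in both classes.

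The members varied from nucleus to nucleus within the precursor-like cluster. The lowest, median and highest values were 0, 4 and 14 UMIs for Pdgfra, 0, 2 and 4 UMIs for Sox10, 0, 2 and 9 UMIs for Cspg4, 0, 1 and 5 UMIs for Olig1, 0, 1 and 4 UMIs for Olig2, 0, 1 and 8 UMIs for Gpr17 and 0, 1 and 5 UMIs for Neu4. A precursor-like nucleus held a median of 5 of the 7 members, 3 nuclei held all 7, and 24 of 28 held 3 or more (85.7%, interval 67.3 to 96%). Among oligodendrocyte-like nuclei the median was 1 member, and 28 of 239 (11.7%, interval 7.93 to 16.5%) held 3 or more. The precursor-like nuclei were the deeper ones, and members per nucleus were not compared at equal depth.

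Ordered by the share of their UMIs from the committed precursor genes, 3 precursor-like nuclei stood apart from the other 25, with 196, 195 and 103 UMIs of these genes per 10000 against at most 38.4. This division was made after the values had been seen. The 3 nuclei held Bcas1, Fyn, Tns3, Enpp6 and Bmp4 together, Bmp4 at 2, 4 and 5 UMIs. These genes are on the list that ordered the nuclei, so their high levels follow from the choice. None of the 3 held a UMI of Pdgfra or Cspg4, while 22 of the other 25 held Pdgfra and 19 held Cspg4. With 0 UMIs, the exact upper limit of either gene in the 3 nuclei was 213 CPM. The other 25 held Pdgfra at 916 CPM (interval 769 to 1082) and Cspg4 at 391 CPM (interval 298 to 505). Gpr17 went the other way, with 7, 1 and 8 UMIs in the 3 nuclei and 22 UMIs over the other 25, so 925 against 146 CPM, a ratio of 6.34 (interval 3.11 to 12.6). Neu4 was detected in all 3, at 520.3 against 186 CPM, a ratio of 2.8 (interval 1.16 to 6.11). Sox10 and Olig1 were also detected in all 3, and the intervals of their ratios, 0.788 to 3.48 and 0.95 to 5.39, included 1. The 3 nuclei held 37, 52 and 5 UMIs of the 8 myelin genes. Among the other 25, 1 nucleus held 73 and the rest at most 8. The part of doublets or free oligodendrocyte RNA in the 3 nuclei was not tested.

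**Figure D3:**
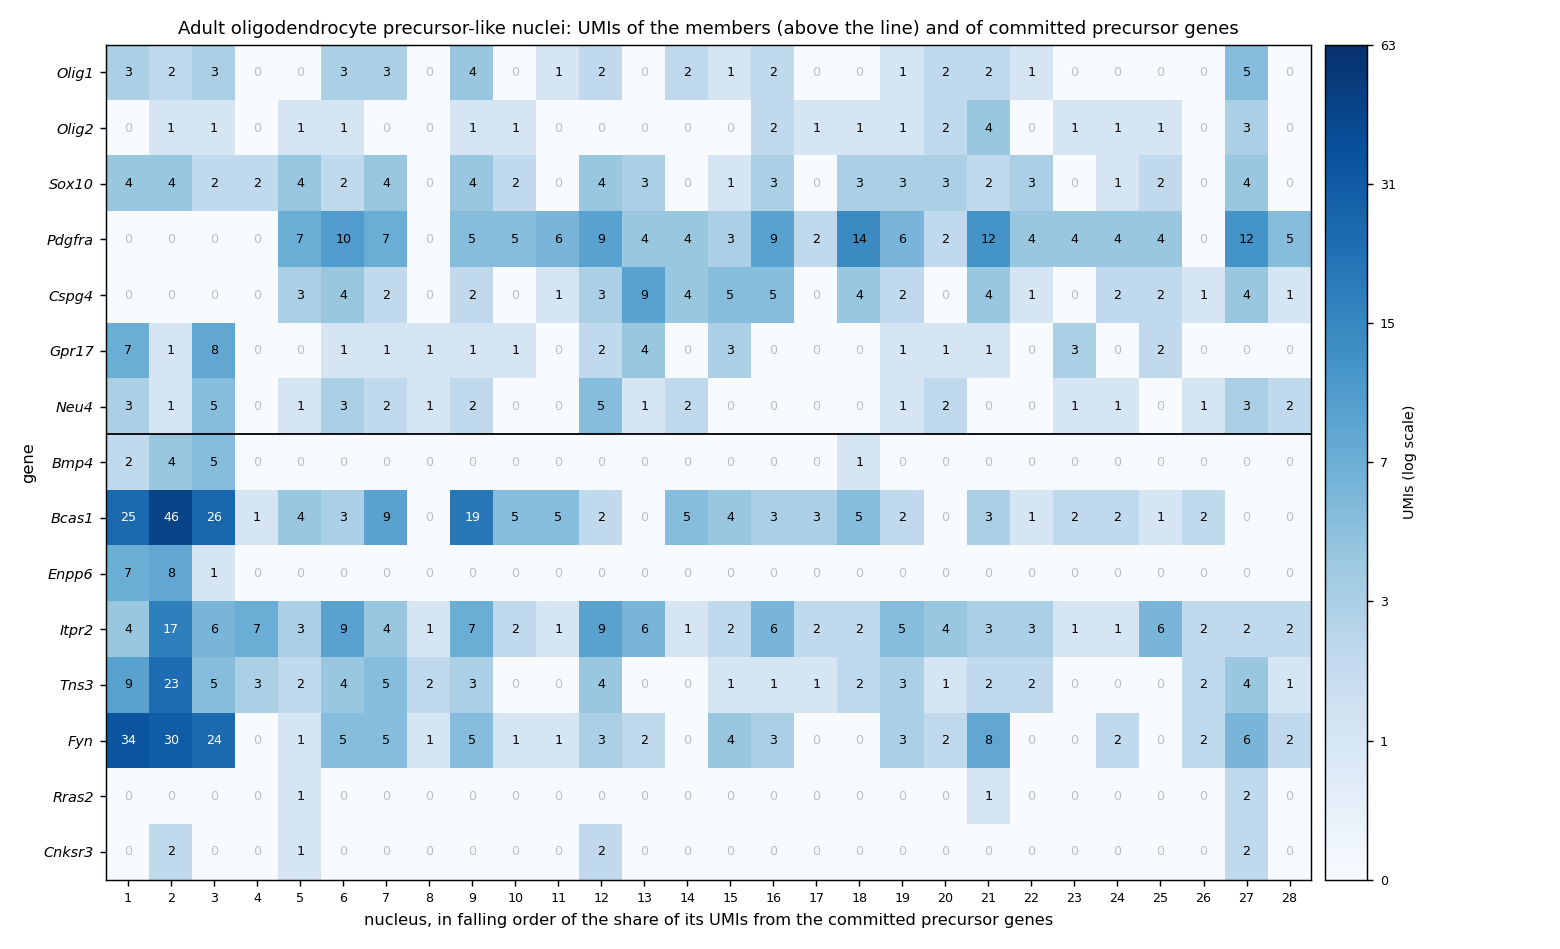
UMIs of the 7 members and of the 8 committed precursor genes in each of the 28 adult precursor-like nuclei, coloured on a log scale, 1 column per nucleus in falling order of the share of UMIs from the committed genes. The first 3 columns hold Bmp4, Enpp6 and high Bcas1 and Fyn, 0 UMIs of Pdgfra and Cspg4, and Gpr17 at 7, 1 and 8 UMIs.

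Some pairs of members within nuclei were also counted. The 3 nuclei set apart above held Gpr17 without Cspg4 or Pdgfra. They enter the precursor-like counts here, so these pairs are no separate evidence. Of precursor-like nuclei with Cspg4, 18 of 19 (94.7%, interval 74 to 99.9%) also held Pdgfra, against 4 of 9 (44.4%, interval 13.7 to 78.8%) of those without Cspg4, at median depths of 5791 and 3459 UMIs and with overlapping intervals. Of the nuclei with Gpr17, 9 of 16 (56.2%, interval 29.9 to 80.2%) held Cspg4, against 10 of 12 (83.3%, interval 51.6 to 97.9%) of those without, although the nuclei with Gpr17 were the deeper ones at 6133.5 against 4275.5 UMIs, and these intervals overlap. Sox10 was found with Pdgfra in 17 of 22 (77.3%, interval 54.6 to 92.2%) of Pdgfra nuclei. Among oligodendrocyte-like nuclei, 76 of 118 (64.4%, interval 55.1 to 73%) of those with Olig1 held Sox10 and 63 of 121 (52.1%, interval 42.8 to 61.2%) of those without did, with depths of 3252.5 and 2670 UMIs and overlapping intervals. Co-detection rises with depth, and at 2000 UMIs per nucleus the Pdgfra nuclei with Sox10 were 38.1% (interval 18.1 to 61.6%).

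The few oligodendrocyte-like nuclei with Gpr17 differed from the rest of their class. They numbered 7 of 239, with a median of 5353 UMIs against 2993.5. The committed precursor genes, which do not include Gpr17, stood at 8130.5 against 1336 CPM, a ratio of 6.09 (interval 5.38 to 6.88). Precursor markers stood at 2803 against 391 CPM, a ratio of 7.16 (interval 5.75 to 8.86), while the 8 oligodendrocyte markers stood at 18902 against 20889 CPM, a ratio of 0.905 (interval 0.842 to 0.971). The 16 nuclei with Cspg4 showed a smaller difference of the committed genes, 3055 against 1556 CPM, a ratio of 1.96 (interval 1.69 to 2.27). These groups were formed by detection, which depth favours.

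Outside the lineage, Cspg4 and Pdgfra were found in the vascular cluster. This endothelial-like cluster of 60 nuclei showed all 8 endothelial and all 8 mural markers, so pericytes and endothelial cells were not separated in it. Cspg4 stood there at 137 CPM (interval 104 to 178, 57 UMIs in 16 of 60 nuclei), a level 0.391 times (interval 0.267 to 0.572) that of precursors, and these nuclei held 36.5% of the library's Cspg4 UMIs. In its 16 nuclei with Cspg4, the mural markers stood at 7627 against 2459 CPM, a ratio of 3.1 (interval 2.8 to 3.44), and the endothelial markers at 13434 against 18313 CPM, a ratio of 0.734 (interval 0.698 to 0.77). Precursor markers were also higher in them, at 1735 against 472 CPM, a ratio of 3.68 (interval 2.93 to 4.66), with depths of 10179 and 3372 UMIs. Pdgfra stood at 81.8 CPM (interval 56.6 to 114, 34 UMIs in 6 of 60 nuclei), but 26 of these UMIs and 9 of the Cspg4 UMIs came from 1 nucleus that held all 7 members. Without that nucleus, a choice made after the data were seen, Pdgfra was at 20.2 (interval 8.71 to 39.8, 8 UMIs in 5 of 59 nuclei) and Cspg4 at 121 CPM (interval 89.3 to 161). In the 6 nuclei with Pdgfra, fibroblast markers stood at 1341 against 609 CPM, a ratio of 2.2 (interval 1.69 to 2.85), and mural markers at 8650.4 against 4499 CPM, a ratio of 1.92 (interval 1.74 to 2.12). Precursor markers stood at 4245 against 569 CPM, a ratio of 7.46 (interval 6.18 to 9), but this rested on the same nucleus and turned without it, to a ratio of 0.526 (interval 0.275 to 0.919). Without it the precursor marker ratio of Cspg4 nuclei was 1.29 (interval 0.978 to 1.71), which includes 1, while their mural ratio was 3.12 (interval 2.81 to 3.46).

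Olig1 was the member most often found in astrocyte-like nuclei. It stood there at 52.5 CPM (interval 39.8 to 68, 57 UMIs in 38 of 202 nuclei), with 17 UMIs of Sox10, 10 of Olig2 and 15 of Pdgfra beside its 57. In oligodendrocyte-like nuclei the same genes had 179 and 300 UMIs, Olig1 then Sox10, so the ratio of their counts differed between the classes. The Olig1 level was unequal among the astrocyte-like clusters, 34.8 CPM (interval 23.1 to 50.3) in cluster 5 and 145 (interval 93.8 to 214) in cluster 6. Cluster 6 was shallow, with a median of 1153.5 UMIs against 6317, had 0.517% of its UMIs from the nuclear RNA Malat1 against 5.16% in cluster 5, and held oligodendrocyte markers at 5317 against 1281 CPM. In the 38 astrocyte-like nuclei with Olig1, oligodendrocyte markers stood at 3449.6 against 1193 CPM, a ratio of 2.89 (interval 2.64 to 3.16), and astrocyte markers at 9804 against 15199 CPM, a ratio of 0.645 (interval 0.619 to 0.672). The part of doublets or free RNA in this signal was not tested. The unnamed low-UMI clusters 3 and 9, with 0.574% and 0.729% Malat1, held Olig1 at 45.7 and 52.1 CPM, while CA1-like, CA3-like and thalamic-like neurons were at 1.14, 1.34 and 1.47.

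In the E14 brain most Pdgfra UMIs lay in mesenchyme and most Cspg4 UMIs in the vascular cluster. The transcription factors were at a higher level in progenitors than in mesenchyme, but progenitors held only 35.8% of the library's Olig1 UMIs, 43.4% of its Olig2 UMIs and 26.9% of its Sox10 UMIs. The unnamed cluster 5, with 503 deep nuclei, held 22.6, 25 and 36.5% of them. Pdgfra stood at 173 CPM (interval 158 to 189, 503 UMIs in 220 of 392 nuclei) in mesenchyme-like nuclei and at 15.1 CPM (interval 12.1 to 18.5, 91 UMIs in 34 of 917 nuclei) in progenitors, a ratio of 11.5 (interval 9.16 to 14.5). With likely doublets removed the log2 ratio was 4.34 in place of 3.52. A mesenchyme-like nucleus held up to 33 Pdgfra UMIs, and thinned to 1000 UMIs 19.4% (69 of 356) of them held it, against 1.15% (10 of 868) of progenitors. Mesenchyme held 53.6% of the library's Pdgfra UMIs. Within it, nuclei with and without Pdgfra differed little in fibroblast or mesenchyme markers, at 3319 against 2966 CPM, a ratio of 1.12 (interval 1.07 to 1.17), although their median depths were 5528 and 2527 UMIs.

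The transcription factors were scarce. Olig2 stood at 9.78 CPM (interval 7.45 to 12.6, 59 UMIs in 41 of 917 nuclei) in progenitors and 1.72 CPM (interval 0.559 to 4.01, 5 UMIs in 5 of 392 nuclei) in mesenchyme. Olig1 had 19 UMIs in progenitors against 1 in mesenchyme, Sox10 had 14 against 1 and Gpr17 had 5 against 0. The ratios of mesenchyme to progenitors were 0.176 (interval 0.0551 to 0.434) for Olig2, 0.109 (interval 0.00263 to 0.687) for Olig1 and 0.148 (interval 0.00351 to 0.974) for Sox10. Cspg4 did not differ beyond counting error, at 4.64 CPM (interval 3.08 to 6.71, 28 UMIs in 24 of 917 nuclei) and 5.16 CPM (interval 2.89 to 8.51, 15 UMIs in 13 of 392 nuclei), a ratio of 1.11 (interval 0.552 to 2.15). Neu4 had 0 UMIs in all 9036 nuclei and 58923882 UMIs, which allows a level of up to 0.0509 CPM at a floor of 3 counts. Of the 5 members tested, 1 was at least 4-fold higher in mesenchyme and 3 were lower, where 6.62% of 17013 genes were higher and 3.20% were lower.

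**Figure D4:**
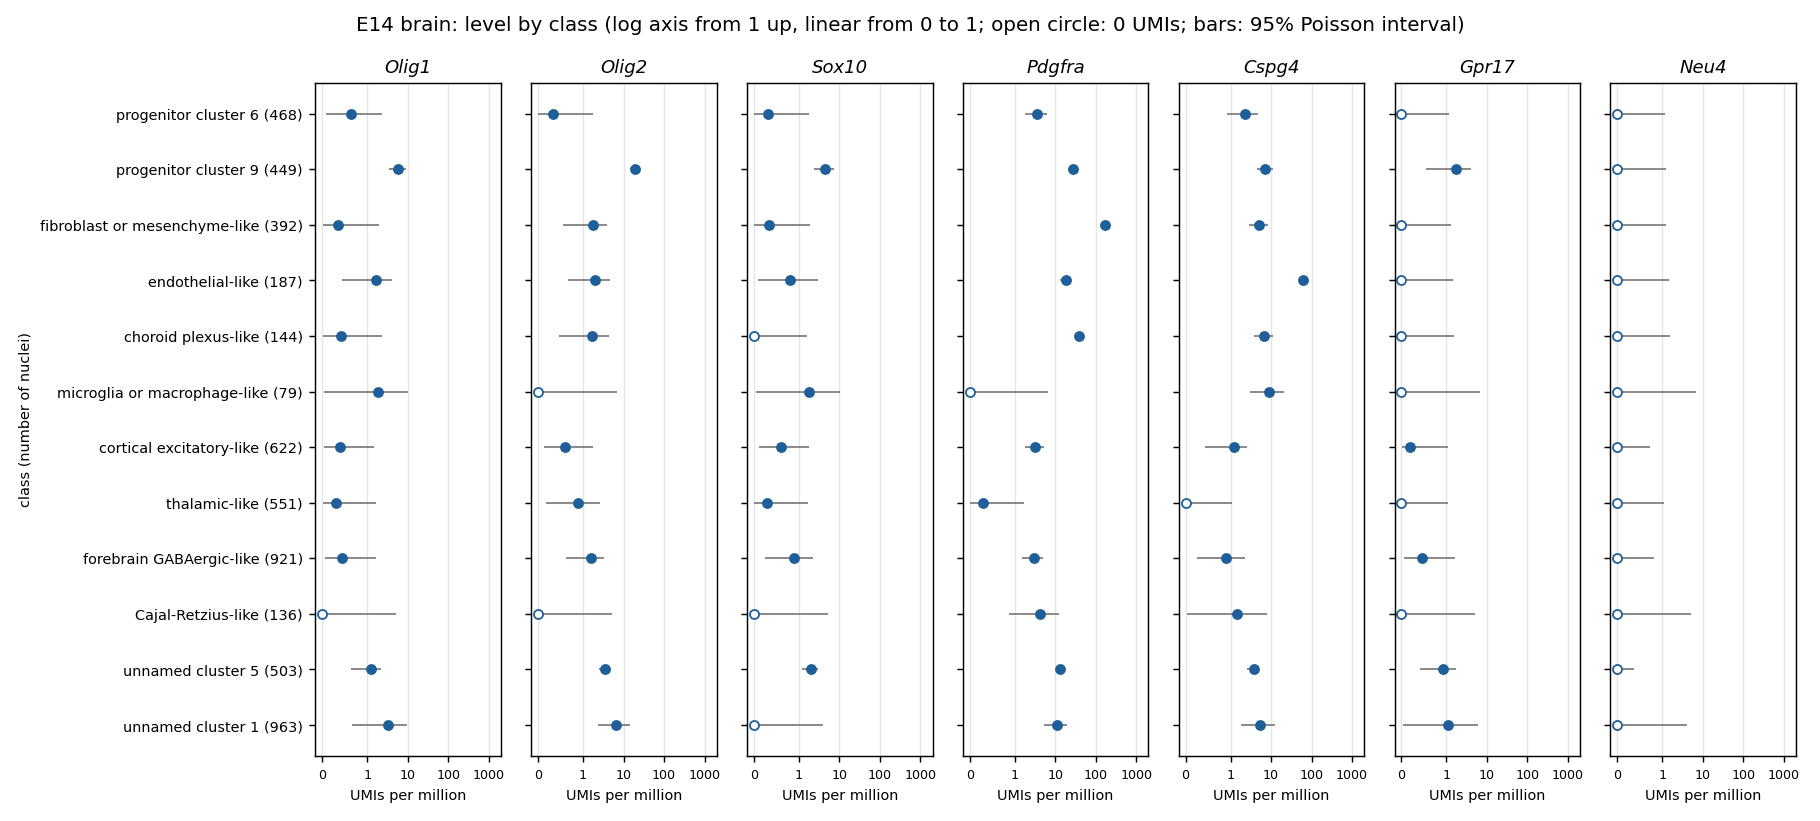
Level of each member in named classes of the E14 brain and in unnamed clusters 5 and 1, in CPM (UMIs per 1000000 UMIs of the class) on a log axis that is linear below 1, with 95% Poisson intervals as bars. Pdgfra is highest in mesenchyme-like nuclei at 173, Cspg4 in endothelial-like nuclei at 61.8, Olig2 in progenitor cluster 9 at 19.7, and Neu4 is at 0 throughout.

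Most member UMIs of progenitors lay in cluster 9, the cluster with ventral markers. Olig2 had 58 UMIs there, at 19.7 CPM (interval 15 to 25.5), and 1 UMI in cluster 6, a ratio of 61 (interval 10.5 to 2449.6). Olig1 had 17 and 2 UMIs, a ratio of 8.94 (interval 2.12 to 79.7), and Sox10 had 13 and 1, a ratio of 13.7 (interval 2.05 to 581). Pdgfra had 80 and 11 UMIs, a ratio of 7.65 (interval 4.05 to 15.9), Cspg4 had 21 and 7, a ratio of 3.15 (interval 1.29 to 8.78), and Gpr17 had 5 and 0. A few nuclei carried most of these counts, except those of Olig2. They were picked by the members they held, so part of this concentration follows from the choice. The 9 of 449 nuclei of cluster 9 that held 3 or more members had all 13 Sox10 UMIs, 12 of 17 Olig1, 51 of 80 Pdgfra, 12 of 21 Cspg4 and 4 of 5 Gpr17 UMIs, but 8 of 58 Olig2 UMIs, so that outside them Sox10 had 0 UMIs in cluster 9. Median depths were 3783 UMIs in cluster 9 and 3867.5 in cluster 6, which are close. Of the 5 members tested, 4 were at least 4-fold higher in cluster 9 and 0 were lower, where 2.34% of 15449 genes were higher and 1.39% were lower, and 2 members remained higher when 20 UMIs were asked for.

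Other genes of the lists differed less between these progenitor clusters. Of 8 lineage transcription factors tested, 2 were higher in cluster 9 by the 4-fold limit, among them Nkx2-2, a factor of ventral progenitors, at 4.08 against 0.97 CPM from 12 and 3 UMIs. Sox6 was lower within the limit, at 942 against 2003, and Sox5 higher within it, at 1078 against 671. Jag1, a Notch ligand, was 1 regulator past the limit of 8 tested, at 34.3 against 7.76, and Hes5 stood at 116 against 64.4. Among proteoglycans Bcan was lower, at 19.4 against 108, while Ptprz1 at 2015 against 635 and Cspg5 at 74.5 against 23.3 were higher within the limit. None of 6 committed precursor genes, 3 myelin genes and 4 PDGF genes tested passed it, nor did Neu1.

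Between mesenchyme and progenitors, 2 of 5 PDGF genes were higher in mesenchyme, the second receptor Pdgfrb at 77.8 against 12.9 and the ligand Pdgfd at 38.5 against 8.95 CPM, while Pdgfa stood at 10.3 against 5.31 and Pdgfc at 34.4 against 85.4. Of 9 transcription factors, 3 were lower, among them Sox9 and Sox6, the latter at 293 against 1486, and Myrf was higher from 19 against 5 UMIs. Of 8 regulators, Hes5, Notch1 and Dll1 were lower and 0 were higher. Of 8 proteoglycans, Gpc5 and Acan were higher and Ptprz1 and Bcan lower. Bmp4 and Itpr2 were higher among 7 committed precursor genes and Cldn11 among 4 myelin genes, at 77.8 against 1.33, and Neu1, the sialidase tested, was within the limit.

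Olig2 nuclei of cluster 9 were 40 of 449, and their ventral progenitor markers did not differ beyond counting error from those of the others, at 302 against 271 CPM, a ratio of 1.12 (interval 0.947 to 1.31). Cell cycle genes did not differ beyond counting error either, at 2227 against 2156 CPM, a ratio of 1.03 (interval 0.974 to 1.09). Precursor markers were higher in them, at 1845 against 1291 CPM, a ratio of 1.43 (interval 1.34 to 1.53), and so were radial glia markers, at 3281 against 2629 CPM, a ratio of 1.25 (interval 1.19 to 1.31). The 24 Pdgfra nuclei of cluster 9 held precursor markers at 2346 against 1294 CPM, a ratio of 1.81 (interval 1.68 to 1.96), and fibroblast or mesenchyme markers at 386 against 34.3 CPM, a ratio of 11.3 (interval 8.55 to 14.9). Depth favoured detection in both cases, with medians of 10357.5 against 3473 UMIs for Olig2 and 9645.5 against 3654 for Pdgfra, and the part of doublets with mesenchyme in the Pdgfra signal was not tested here.

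Over all progenitors, 11 of 41 (26.8%, interval 14.2 to 42.9%) of Olig2 nuclei also held Pdgfra, against 23 of 876 (2.63%, interval 1.67 to 3.91%) of those without Olig2. The depths were 10358 and 3708.5 UMIs, and at 2000 UMIs per nucleus 1 of 10 Olig2 nuclei held Pdgfra. The 7 progenitor nuclei with Sox10 often held other members, as 6 held Olig1, 5 held Pdgfra, 5 held Cspg4 and 4 held Olig2. Among the 910 progenitors without Sox10, 8 held Olig1 and 29 held Pdgfra.

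In the whole E14 library 31 of 9036 nuclei (0.343%, interval 0.233 to 0.487%) held 3 or more members, 12 of them in the unnamed cluster 5, 9 in progenitor cluster 9 and the other 10 in 7 further clusters. Cluster 5 was deep, with a median of 13449 UMIs, and no marker list named it. Of the 31 nuclei, 8 were among the 654 marked as likely doublets, which leaves 23. The 9 nuclei of cluster 9 had a median of 8304 UMIs against 3687.5 in its other 440 nuclei, and 2 of the 9 were marked as likely doublets. Depth favours the detection of 3 or more members. In cluster 9, the 9 nuclei with 3 or more members held precursor markers at 5142 against 1264 CPM, a ratio of 4.07 (interval 3.72 to 4.44) over the other 440 nuclei of that cluster. Without Lhfpl3, which gave 274 of the 597 UMIs, the ratio was 2.31 (interval 2.05 to 2.59). Lhfpl3, a membrane protein gene of precursors, stood at 2360.1 against 59.8 CPM, a ratio of 39.4 (interval 32.4 to 48.1), Xylt1 at 1042 against 132 CPM, a ratio of 7.89 (interval 6.37 to 9.71), Pcdh15 at 939 against 252 CPM, a ratio of 3.72 (interval 3.02 to 4.56) and Cspg5 at 215 against 68.7 CPM, a ratio of 3.13 (interval 1.98 to 4.77). Megf11 went the other way, at 138 against 389 CPM, a ratio of 0.354 (interval 0.202 to 0.578), and the intervals of Vcan, at 388 against 303 CPM, a ratio of 1.28 (interval 0.925 to 1.72), and Tnr, at 34.5 against 57 CPM, a ratio of 0.604 (interval 0.163 to 1.58), included 1. Other lists were higher in the same 9 nuclei, Schwann or neural crest markers at 327 against 127 CPM, a ratio of 2.57 (interval 1.79 to 3.6), radial glia markers at 4221 against 2718 CPM, a ratio of 1.55 (interval 1.41 to 1.7) and cell cycle genes at 2687 against 2151 CPM, a ratio of 1.25 (interval 1.11 to 1.4). The ventral progenitor markers stood at 164 against 283 CPM, a ratio of 0.579 (interval 0.347 to 0.911).

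The 12 nuclei of cluster 5 were alike in part. Of these 12, 4 were marked as likely doublets, and 1 of the 4 had 126099 UMIs. Deep nuclei weigh most in pooled levels, and those of the 12 were not computed without the marked doublets. Precursor markers stood at 2904 against 1447 CPM, a ratio of 2.01 (interval 1.87 to 2.15) over the other 491 nuclei, Lhfpl3 at 969 against 150.1 CPM, a ratio of 6.46 (interval 5.67 to 7.34) and Xylt1 at 520.3 against 139 CPM, a ratio of 3.74 (interval 3.14 to 4.42), at median depths of 12730 and 13642 UMIs. Without Lhfpl3, which gave 285 of the 854 UMIs, the ratio of the list was 1.49 (interval 1.37 to 1.62). Radial glia markers were higher as well, at 1609 against 997 CPM, a ratio of 1.61 (interval 1.47 to 1.77), and cell cycle genes stood at 575 against 479 CPM, a ratio of 1.2 (interval 1.02 to 1.4). Vcan and Tnr did not differ beyond counting error there, at 190.5 against 181 CPM, a ratio of 1.05 (interval 0.792 to 1.37) and 139 against 117 CPM, a ratio of 1.19 (interval 0.849 to 1.63). Bcas1, an early gene of the differentiating lineage that is in no marker list, was found in 7 of the 12 nuclei, at 34 against 2.65 CPM, a ratio of 12.9 (interval 5.51 to 27.7). Mbp did not differ beyond counting error, at 34 against 24.3 CPM, a ratio of 1.4 (interval 0.661 to 2.62). The 31 nuclei were also pooled and compared with all other nuclei of their clusters, at median depths of 12624 and 4728 UMIs. The mix of clusters and the deepest nuclei, 1 of them with 208500 UMIs, enter these pooled ratios. Over all 31 nuclei the precursor markers stood at 2348 against 1346 CPM, a ratio of 1.74 (interval 1.67 to 1.83) and, without the marked doublets, at 2529.9 against 1343 CPM, a ratio of 1.88 (interval 1.79 to 1.99). Without Lhfpl3 the ratio over all 31 was 1.3 (interval 1.23 to 1.37), and Tnr was lower, at 91 against 129 CPM, a ratio of 0.704 (interval 0.552 to 0.884). The precursor list was not alone in this. Radial glia markers stood at 1740.5 against 911 CPM, a ratio of 1.91 (interval 1.81 to 2.02), and cell cycle genes at 936 against 460.3 CPM, a ratio of 2.03 (interval 1.89 to 2.19). Within clusters 9 and 5 the radial glia ratios were 1.55 and 1.61, and the cell cycle ratios 1.25 and 1.2. Fibroblast or mesenchyme markers were also higher over all 31, at 685 against 345 CPM, a ratio of 1.99 (interval 1.82 to 2.16), and without the marked doublets at 957 against 348 CPM, a ratio of 2.75 (interval 2.52 to 3), but not in the 9 nuclei of cluster 9, at 51.7 against 76.5 CPM, a ratio of 0.676 (interval 0.245 to 1.49). Of the 565 UMIs of these markers over all 31, the 9 nuclei of cluster 9 gave 6 and the 12 of cluster 5 gave 22.

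**Figure D5:**
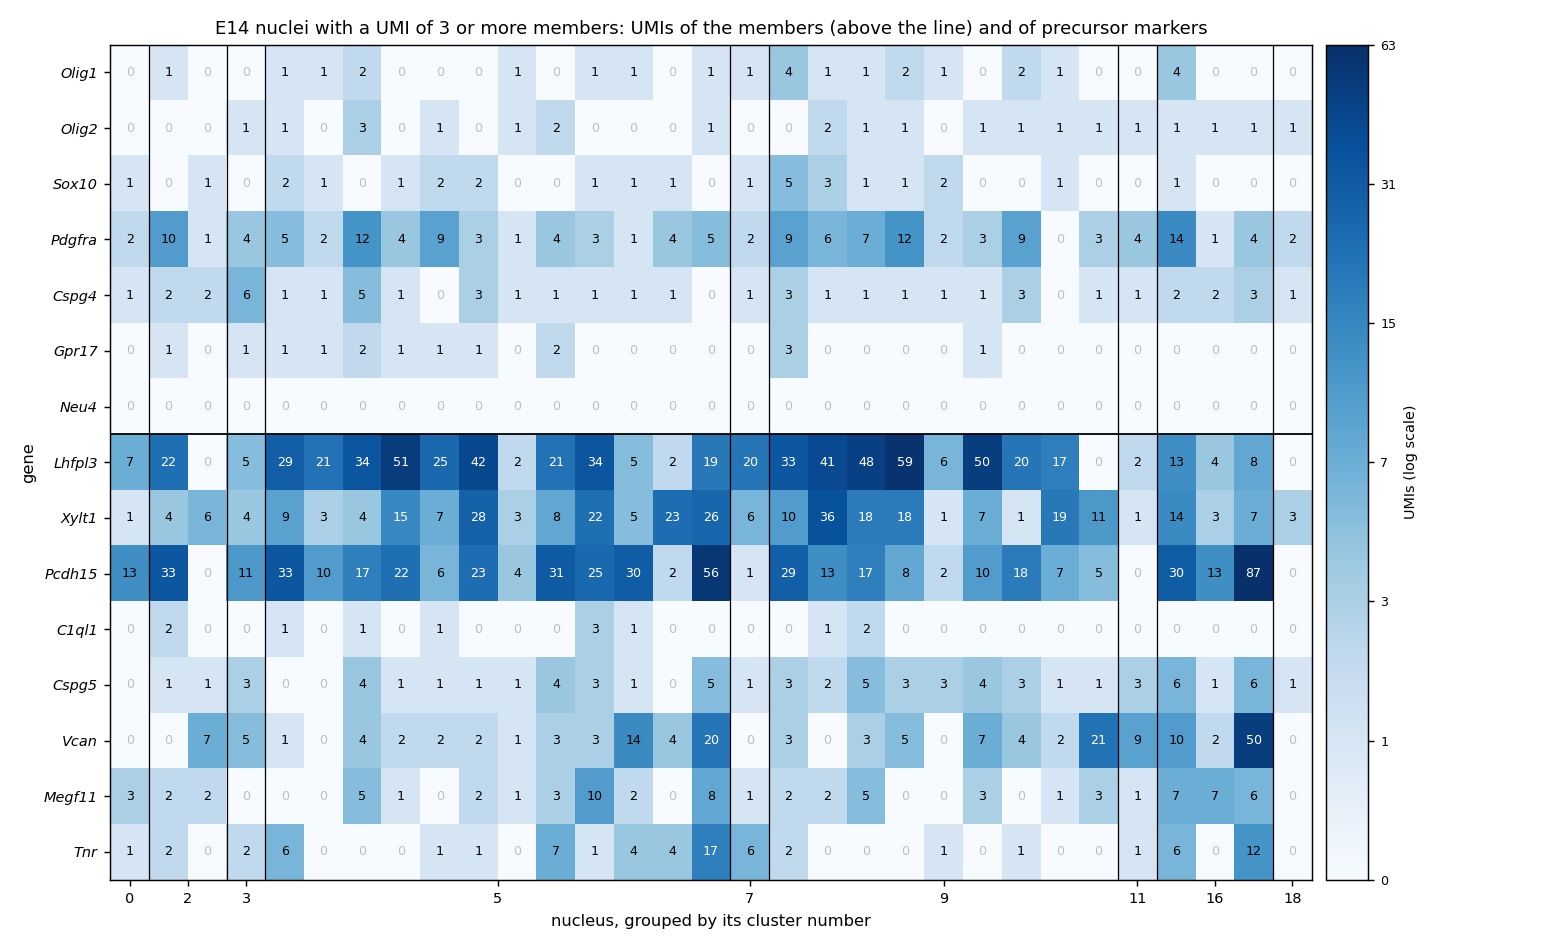
UMIs of the 7 members and of the 8 precursor markers in the 31 E14 nuclei that held 3 or more members, coloured on a log scale and grouped by cluster number. All 12 nuclei of cluster 5 and 7 of the 9 of cluster 9 hold Pdgfra together with Lhfpl3, Xylt1 and Pcdh15, and Neu4 is at 0 in all.

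Cspg4 was highest in the vascular cluster of the E14 brain. It stood at 61.8 CPM (interval 52.4 to 72.4, 153 UMIs in 67 of 187 nuclei) in the endothelial-like cluster, which showed 8 endothelial and 7 mural markers, a level 13.3 times (interval 8.85 to 20.7) that of progenitors and 53.3% of the library's Cspg4 UMIs. In the 67 nuclei with Cspg4, mural markers stood at 1150.0 against 471 CPM, a ratio of 2.44 (interval 2.2 to 2.7), endothelial markers at 2921 against 3143 CPM, a ratio of 0.93 (interval 0.888 to 0.973) and precursor markers at 755 against 735 CPM, a ratio of 1.03 (interval 0.936 to 1.13). Mural markers were thus higher in Cspg4 nuclei of the vascular cluster in both libraries. At E14 too the nuclei with Cspg4 were the deeper ones, at medians of 13679 against 5835.5 UMIs. Pdgfra stood in the E14 vascular cluster at 18.2 CPM (interval 13.3 to 24.3, 45 UMIs in 18 of 187 nuclei), and its 18 nuclei held fibroblast or mesenchyme markers at 1155 against 553 CPM, a ratio of 2.09 (interval 1.9 to 2.3) but mural markers at 489 against 1017 CPM, a ratio of 0.481 (interval 0.427 to 0.54). The median depth of these 18 nuclei was 31167.5 UMIs against 7324 in the others.

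Choroid plexus-like nuclei were a second site of Pdgfra, at 38.3 CPM (interval 30.8 to 47, 91 UMIs in 42 of 144 nuclei). The choroid plexus markers, which include the transthyretin gene Ttr, stood in the 42 nuclei with Pdgfra at 41571 against 11573 CPM, a ratio of 3.59 (interval 3.52 to 3.66), and the fibroblast or mesenchyme markers at 201 against 114 CPM, a ratio of 1.77 (interval 1.42 to 2.2). The nuclei with Pdgfra were deeper, with a median of 17920.5 against 5856.5 UMIs. Thinned to 1000 UMIs, 4.26% (6 of 141) of choroid plexus-like nuclei held Pdgfra. In neurons Pdgfra was near 3 CPM or lower, at 3.2 in cortical excitatory-like, 2.91 in forebrain GABAergic-like and 0.298 in thalamic-like nuclei.

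For each member, the 3 genes of at least 50 UMIs whose level over the clusters was most like it were found by Pearson's r of log2 levels with 10 added, over 17 adult or 23 E14 clusters that share depth and library. In the adult library they were Bcas1 (0.952), Zcchc24 (0.905) and Scd2 (0.903) for Olig1, Sox8 (0.929), Bace1 (0.91) and Gjc3 (0.908) for Olig2, Bcas1os2 (0.972), Prkcq (0.961) and Enpp6 (0.948) for Sox10, Traf4 (0.925), Calcrl (0.911) and Tes (0.881) for Pdgfra, Phlda1 (0.906), Chst3 (0.887) and Calcrl (0.887) for Cspg4 and Kcnh8 (0.98), A930009A15Rik (0.931) and Shc4 (0.925) for Gpr17. At E14 they were Olig2 (0.887), Pbk (0.848) and Phf19 (0.845) for Olig1, Apela (0.915), Aldh1l1 (0.913) and Olig1 (0.887) for Olig2, Mlxipl (0.761), Gm39119 (0.731) and 1700084F23Rik (0.707) for Sox10, Fmo1 (0.953), Mxra8 (0.939) and Bmp6 (0.933) for Pdgfra and Tlr3 (0.961), Gm11946 (0.957) and Gimap6 (0.957) for Cspg4. Olig1 and Olig2 were thus among each other's 3 nearest at E14 but not in the adult clusters. Neu4 in both libraries and Gpr17 at E14 had fewer than 50 UMIs and were not compared.

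Side by side over all nuclei, the adult library held more of 6 members, in CPM, than the E14 library. Sox10 was at 27 (interval 24.4 to 29.7) in the adult and 0.882 (interval 0.659 to 1.16) at E14, Olig1 at 21 and 0.899, and Olig2 at 5.99 and 2.31. Cspg4 was at 10.2 and 4.87, Gpr17 at 3.78 and 0.339, and Neu4 at 3.19 and 0. Pdgfra was the exception, at 13.9 (interval 12.1 to 15.9) and 15.9 (interval 14.9 to 17), with mesenchyme in place of precursors as its main site.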

How the data were processed

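Single-nucleus RNA of 1 adult mouse hippocampus and 1 E14 mouse brain section was measured. The deposited matrices hold whole-number UMI counts per gene and nucleus, not normalized, made by the authors with Cell Ranger (6.1.2 for the adult, 7.0.1 for E14, per the file headers) on mm10. Nuclei with under 500 UMIs or over 5% mitochondrial UMIs were left out. Each library was clustered with Seurat 5.3.0 in R 4.3.3 (2000 variable genes without the 7 members, 30 components, resolution 0.8). Cell classes were rebuilt here, so a difference from the study's own classes may come from the names. A cluster was named where at least 4 of 8 markers of a list were detected in at least 10% of its nuclei at 2-fold or more the level of the rest, except where depth was low. The members and all lists were chosen with earlier results of these data known.

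Levels are CPM (UMIs per 1000000) with exact 95% Poisson intervals, shares have exact binomial (Clopper-Pearson) intervals and ratios exact conditional binomial ones (scipy 1.17.1). All cover counting error only and are no test between animals, since each tissue has 1 library. A gene was counted as higher or lower past 4-fold, with at least 10 UMIs over both classes. Shares were also computed after thinning nuclei to 1000 UMIs. Scrublet (scanpy 1.11.5) at its automatic threshold marked 6 adult and 1 E14 nuclei, too few to be of use, so its 23 and 654 highest-scoring nuclei were taken as likely doublets, kept here and removed in an alternative. The genes named are the members, the 3 genes most like each over clusters, and up to 4 of each list, those with most UMIs or past the limit. Genes named in the nuclei with 3 or more members, and the splits of nuclei by a member, were picked once values were known. Positions come from GENCODE vM21 and sequences from RefSeq on GRCm38.p6. The calling was tested on simulated data. Alternatives changed the UMI and mitochondrial minimums and limits, variable genes, resolution, doublets, fold limit, count minimum, thinning depth and the constant added before logs. Values of some list genes are not reported here.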

Additional observations from a re-analysis of the deposited data

How the results depend on the processing

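Among the alternatives run, 1 result changed direction. The precursor marker ratio of adult vascular Pdgfra nuclei was 7.46 and, without the nucleus of most Pdgfra UMIs, 0.526. Of the values that answer a comparison 124 stayed within their error or within 1.5 times and 15 moved. Thinning to 2000 UMIs lowered co-detection, to 38.1% of adult Pdgfra precursors with Sox10, 48.1% of adult oligodendrocyte-like Olig1 nuclei with Sox10 and 10% of E14 Olig2 progenitors with Pdgfra, and at least 2 UMIs of each gene gave 50% for the oligodendrocyte pair. With 4000 variable genes the adult log2 ratio of Sox10 was -0.51. With likely doublets removed the E14 log2 ratio of Pdgfra was 4.34. The cause of these shifts was not tested, apart from the fewer UMIs of thinned nuclei. Asking for 20 UMIs left 624 genes higher in adult precursors and 221 genes, 2 of them members, higher in E14 cluster 9, as fewer genes were tested. A fold limit of 2 gave 2004 higher and 2025 lower genes in adult precursors, 2747 and 1783 in E14 mesenchyme, and 1452 and 860 in cluster 9. Of the other values, 188 stayed and 29 moved. The adult Pdgfra ratio could be given in 4 of 7 settings, as oligodendrocyte-like nuclei held 0 UMIs of it in the others. Chosen after seeing the data, adult vascular Pdgfra without the nucleus of most Pdgfra UMIs was 20.2 CPM, and E14 nuclei with 3 or more members without likely doublets were 23. Without Lhfpl3, also chosen after seeing the data, the E14 precursor marker ratios of those nuclei were 1.3 over all, 2.31 in cluster 9 and 1.49 in cluster 5. No paired analysis was possible because each tissue has 1 library. Low counts limit Neu4 and Gpr17 at E14 and all members in the 28 adult precursor-like nuclei.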
